A study of Mus musculus with 23 samples.

Results

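Synaptic vesicle release genes encode the proteins that fill the presynaptic terminal with vesicles and let them fuse. The 39 genes described here are 14 synaptotagmins, 3 synapsins, 4 SNARE proteins, 4 complexins, 3 Rab3 GTPases, 3 RIM and 3 Munc13 proteins, 3 SV2 glycoproteins and the active zone scaffolds Bassoon (Bsn) and Piccolo (Pclo). They were chosen by name and function out of 21938 protein-coding genes, and all 39 were found in the annotation. For each gene the peaks of 2 histone marks within 5 kb of its transcription start site (TSS, here the 5′ end of the gene) were collected, to see which genes carried acetylation early and which only at E15.5.

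The marks were profiled by ChIP-seq in cerebral cortex cells of mice with the transgene Tg(Ebf2-EGFP)FB58Gsat, in which EGFP follows the Ebf2 gene. Cells with EGFP (Ebf2-EGFP+) were sorted at each of E11.5, E13.5 and E15.5, cells without it (Ebf2-EGFP-) at E11.5, and all of them carried the transgene and no other allele or treatment that the labels name. Per the study's own account, Ebf2-EGFP+ cells are chiefly preplate neurons at E11.5 and for the most part Cajal-Retzius (CR) cells at E15.5, while Ebf2-EGFP- cells at E11.5 are largely progenitors. The 15 ChIP samples formed 8 groups of mark and cells, with 2 libraries each except for H3K27ac in Ebf2-EGFP- cells, which had 1 library, and 8 input samples made up the remaining 4 groups. Each ChIP group came as 1 list of peaks, so that replicate error could not be measured and no difference between lists was tested. The cells were profiled in bulk, and fewer cells with a mark cannot be told apart from less of the mark in each cell.

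In release, the vesicle SNARE synaptobrevin (Vamp) zips up with the plasma membrane SNAREs syntaxin and SNAP-25, synaptotagmin senses calcium and complexin holds the assembled complex until calcium arrives. Rab3, RIM and Munc13 tether the vesicle to the active zone and prime it, Bassoon and Piccolo hold the active zone together, and synapsins keep the reserve of vesicles clustered. CR cells are among the earliest neurons of the cortex, lie in its marginal zone and secrete reelin. H3K27ac, acetylation of lysine 27 of histone H3, marks active promoters and enhancers, and H3K27me3, trimethylation of the same lysine by Polycomb complexes, marks repressed genes.

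The lists differed widely in length, from 1386 peaks for H3K27ac in E11.5 Ebf2-EGFP- cells to 102881 for H3K27ac at E13.5, and the 3 H3K27me3 lists of Ebf2-EGFP+ cells held 1438 to 6721 peaks against 48963 in Ebf2-EGFP- cells. Counts of release genes are therefore set beside the share of all genes marked in the same list. Of 7 CR marker genes, 6, 7 and 5 had H3K27ac within 5 kb at the 3 stages of Ebf2-EGFP+ cells, as had 6, 7 and 5 of 7 progenitor genes, so the peaks near these genes did not set CR cells apart from progenitors. Of 5 endothelial markers 1, 3 and 0 had H3K27ac in those lists, and of 5 erythroid markers 0, 2 and 1. The counts were 4, 3 and 4 of 5 for neuronal genes, 4, 5 and 3 of 6 for interneuron genes, 2, 4 and 2 of 5 for microglial genes and 3, 3 and 1 of 6 for meningeal or mesenchymal genes. In Ebf2-EGFP- cells H3K27ac lay near 1 of the 7 CR genes and 0 of the 7 progenitor genes (all genes 4.17%). H3K27me3 in these cells lay near 5 of 7 in both sets (all genes 48.2%), with Sox2, Hes1, Nes, Vim and Emx2 as the progenitor genes. The lists of Ebf2-EGFP- cells therefore did not set progenitor genes apart as acetylated or free of H3K27me3. The part of other cells in the results below was not tested.

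Acetylation was found near most release genes in all 3 lists of Ebf2-EGFP+ cells. H3K27ac lay within 5 kb of 25 of the 39 TSS at E11.5, or 64.1%, where 49.9% of all genes were marked. At E13.5 it lay near 29 (74.4%, all genes 60.9%), and at E15.5 near 28 (71.8%, all genes 52.3%). In Ebf2-EGFP- cells 2 release genes, Vamp2 and Rims2, had an H3K27ac peak (5.13%), in a list that reached 4.17% of all genes. The share of acetylated release genes was thus above that of all genes at each stage of Ebf2-EGFP+ cells, by a difference that could not be tested, and close to it in Ebf2-EGFP- cells.

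H3K27me3 showed the opposite distribution over the cells, as it did over all genes. In Ebf2-EGFP- cells it lay near 20 of the 39 TSS (51.3%, all genes 48.2%). In Ebf2-EGFP+ cells it lay near Syn2 alone at E11.5 (2.56%, all genes 4.92%), near Syt13, Syt17, Cplx3 and Sv2c at E13.5 (10.3%, all genes 9.31%) and near 0 release genes at E15.5, where 1.06% of all genes were marked. Each of these shares was near that of all genes, and the counts of 20 and 1 at E11.5 came from lists of 48963 and 6387 peaks.

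**Figure D1:**
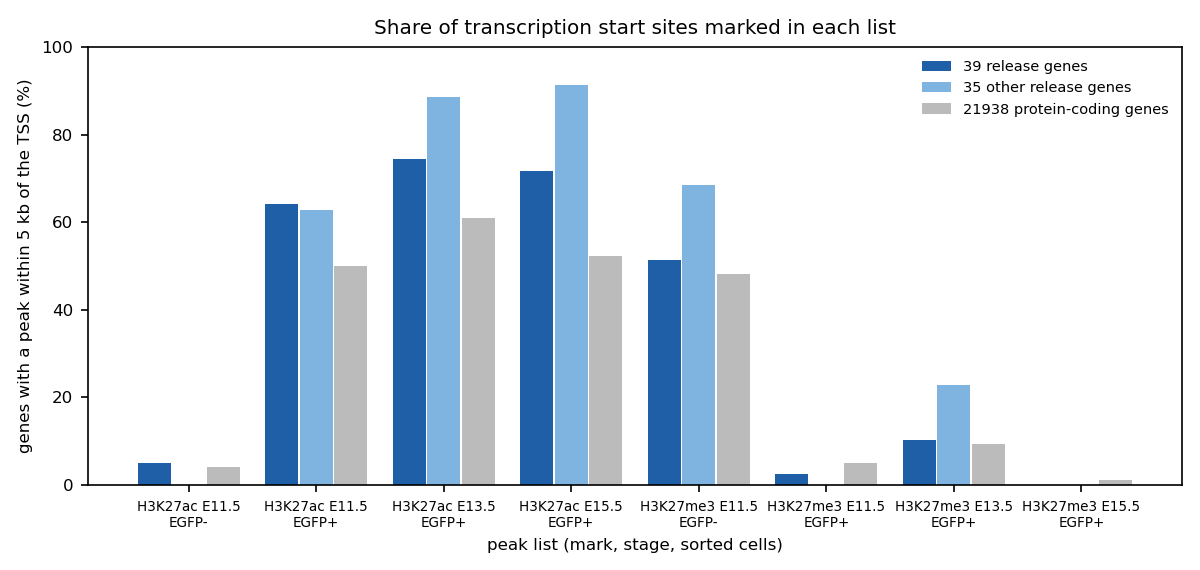
Share of genes with a peak within 5 kb of the TSS (y axis, percent) in each of the 8 peak lists (x axis), for the 39 release genes (dark bars), 35 other genes of the release machinery (light bars) and all 21938 protein-coding genes (grey bars); each bar is 1 list, with no replicate error. The release genes stand above all genes in the 3 H3K27ac lists of Ebf2-EGFP+ cells, at 64.1%, 74.4% and 71.8%, and near them in the other 5 lists.

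Taken by stage, 17 of the 39 release genes (43.6%) had H3K27ac at all 3 stages of Ebf2-EGFP+ cells, against 33.1% of all genes. They were Syt1, Syt6, Syt7, Syt12, Syt16, Syn2, Vamp2, Cplx1, Cplx2, Rab3a, Rab3b, Rims2, Rims3, Unc13a, Unc13b, Sv2b and Pclo, and so held a member of every role. The class depended on the window and the start. Within 1 kb of the TSS 12 genes had H3K27ac at all 3 stages, none of them an SV2 gene, and with any annotated start 24 had. Syt2, Syt10, Syt17 and Cplx3 had it at E11.5 and E13.5 (10.3%, all genes 7.43%), Syt9 and Syt11 at E11.5 and E15.5 (5.13%, all genes 6.93%), and Cplx4 and Rab3c at E11.5 only (5.13%, all genes 2.48%). These 25 genes are the early group.

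The late genes were fewer. H3K27ac was first seen at E13.5 and again at E15.5 near 6 genes (15.4%, all genes 8.15%), Syt3, Syt5, Vamp1, Stx1a, Rims1 and Sv2a, and at E13.5 only near 2, Syt13 and Sv2c (5.13%, all genes 12.3%). It was seen at E15.5 only near 3 genes, Syn1, Snap25 and Bsn (7.69%, all genes 4.09%). Near Syt4, Syn3 and Unc13c it was seen at no stage, and 25.6% of all genes were without it throughout. Of the other 14 release genes, 11 (78.6%) were acetylated by E13.5 or E15.5, compared with 48.9% of all genes that lacked it at E11.5. Of the 25 early genes, 19 (76%) were also acetylated at E15.5, compared with 80.2% of all such genes.

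**Figure D2:**
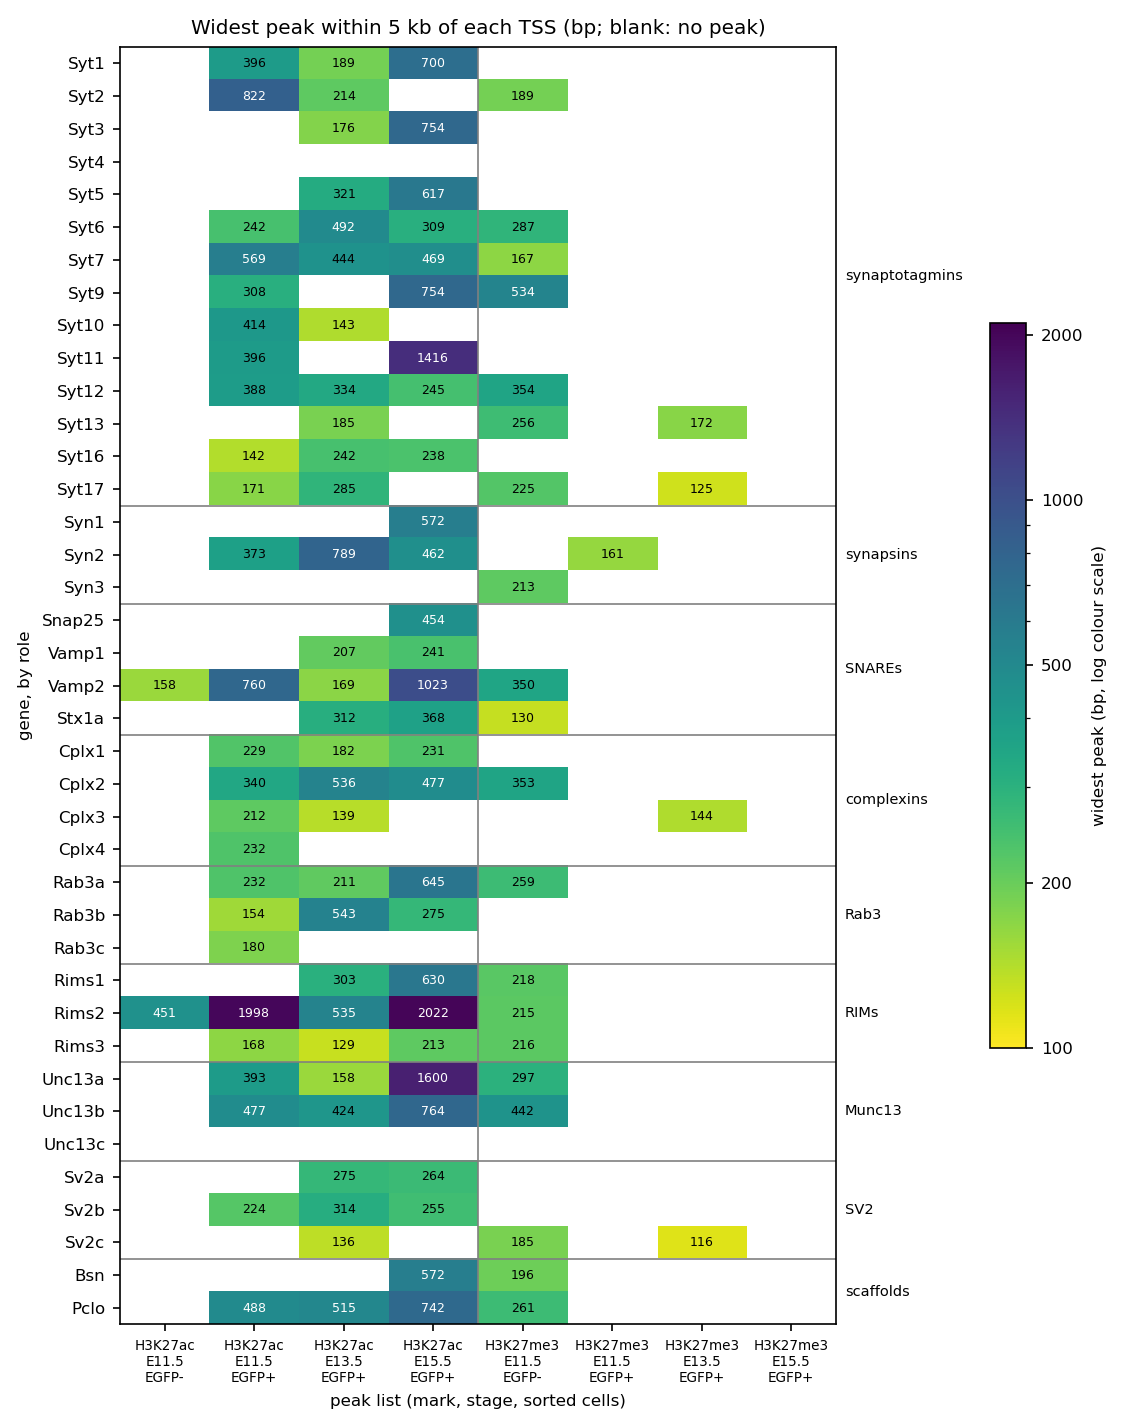
Width in bp of the widest peak within 5 kb of the TSS (cells, log colour scale, value printed) for the 39 release genes (rows, grouped by role) in the 8 peak lists (columns); a blank cell has no peak. Acetylation fills most of the 3 columns of Ebf2-EGFP+ cells, Syn1, Snap25 and Bsn have a cell only at E15.5, and H3K27me3 fills 20 cells in Ebf2-EGFP- cells and 5 in the 3 Ebf2-EGFP+ columns together.

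The 3 genes acetylated at E15.5 only encode a vesicle protein, a SNARE and a scaffold, and each has a relative or partner in the early group. Syn1, a synapsin, had 1 peak within 5 kb in the 8 lists together, of 572 bp at chrX:20920411-20920982, which began 22 bp inside the gene. Snap25, a plasma membrane SNARE, had 2 peaks, of 303 bp at chr2:136713460-136713762 and of 454 bp at chr2:136713968-136714421, both at E15.5 and with their centres in an intron. Bsn had a peak of 572 bp over its TSS at chr9:108189933-108190504. None of the 3 had a peak of either mark in the E11.5 or E13.5 lists of Ebf2-EGFP+ cells within 5 kb of this TSS. Bsn differed from the other two in Ebf2-EGFP- cells, where it had H3K27me3 peaks of 196 and 182 bp, and the 196 bp peak lay wholly inside the later H3K27ac peak.

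The letters before the TSS of Syn1 and Snap25 are shown because both hold a cyclic AMP response element (CRE) and both genes hold a match to RE1, the element bound by the repressor REST, which keeps neuronal genes off outside neurons. RE1 was searched as TTCAGCACC, any 2 bases and GGACAGCGC, on both strands and with up to 3 mismatches, within 1 kb of each TSS. CRE was searched as TGACGTCA. Capitals mark the RE1 and CRE matches, sequences are from GRCm38 (mm10) on the strand of the gene, and none of the letters lies in an annotated exon.
Syn1, 250 bases before the TSS, chrX:20921005-20921254, minus strand: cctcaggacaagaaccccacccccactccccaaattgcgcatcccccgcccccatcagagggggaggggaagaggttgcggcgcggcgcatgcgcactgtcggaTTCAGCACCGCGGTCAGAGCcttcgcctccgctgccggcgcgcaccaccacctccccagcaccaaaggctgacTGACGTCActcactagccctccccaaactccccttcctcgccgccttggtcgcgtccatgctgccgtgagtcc
Snap25, 250 bases before the TSS, chr2:136713203-136713452, plus strand: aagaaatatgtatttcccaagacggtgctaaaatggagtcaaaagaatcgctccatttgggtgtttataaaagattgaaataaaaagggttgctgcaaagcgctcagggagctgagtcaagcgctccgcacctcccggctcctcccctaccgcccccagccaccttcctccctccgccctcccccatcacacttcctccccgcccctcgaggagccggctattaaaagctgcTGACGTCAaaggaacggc
Snap25, last 200 bases of the E15.5 H3K27ac peak, chr2:136714222-136714421, plus strand: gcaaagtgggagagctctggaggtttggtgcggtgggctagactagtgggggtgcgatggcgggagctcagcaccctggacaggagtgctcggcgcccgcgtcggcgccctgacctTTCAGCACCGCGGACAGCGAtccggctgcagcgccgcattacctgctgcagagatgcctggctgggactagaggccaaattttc
The RE1 match of Syn1 lay 146 to 127 bp before the TSS with 2 mismatches, outside the H3K27ac peak. That of Snap25 lay 885 to 904 bp into the gene with 1 mismatch, inside the 454 bp peak of E15.5. The CRE lay 73 bp before the TSS of Syn1 and 18 bp before that of Snap25.

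An RE1 match was found near 3 of the 39 release genes, the third being Syt4, with 1 mismatch 208 bp into the gene, and near 174 of all 21938 genes, or 0.793%. All 3 genes were without H3K27ac at E11.5 and E13.5 and without H3K27me3 in every list. Over all 174 genes with a match no such pattern was seen, in a tally added after the values of the 3 were known. Of them 97 (55.7%, all genes 49.9%), 119 (68.4%, all genes 60.9%) and 112 (64.4%, all genes 52.3%) had H3K27ac at the 3 stages in turn. H3K27me3 lay near 110 in Ebf2-EGFP- cells (63.2%, all genes 48.2%) and near 37 in Ebf2-EGFP+ cells of E13.5 (21.3%, all genes 9.31%). CRE was found near Syn1 and Snap25 alone among the release genes, and near 4.02% of all genes. A match is a description of letters, not of binding. The paper lists Syt4 among subplate genes with higher expression in Ebf2-EGFP+ than in Ebf2-EGFP- cells at E11.5. The lack of peaks near Syt4 does therefore not show a silent gene.

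Genes of like function differed from these. Syn2, a synapsin with the same role as Syn1, had H3K27ac peaks of 373 bp at E11.5, 789 bp at E13.5 and 462 bp at E15.5, all centred in a coding exon. At E11.5 it also had the only H3K27me3 peak of a release gene in Ebf2-EGFP+ cells, of 161 bp, and 155 bp of it lay inside the H3K27ac peak of the same cells. Syn3, the synapsin of young neurons, had no H3K27ac within 5 kb at any stage. Its H3K27me3 peak of 213 bp, found in Ebf2-EGFP- cells, ended 26 bp before its TSS. The 3 synapsins thus had 3 different patterns, always acetylated, late and never. Another annotated start of Syn3, 432053 bp into the gene, had H3K27ac within 5 kb at all 3 stages.

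Bassoon and Piccolo are large related scaffold proteins that act together at the active zone, and they differed in time. Pclo had H3K27ac peaks of 488 bp at E11.5, 515 bp at E13.5 and 742 bp at E15.5, and the near edge moved from 80 bp inside the gene to 69 bp and then 229 bp before the TSS. In Ebf2-EGFP- cells an H3K27me3 peak of 261 bp covered the same TSS, and 128 bp of it lay in the E11.5 H3K27ac peak of Ebf2-EGFP+ cells. The sequences before both TSS are shown for comparison, with the bases inside the E15.5 H3K27ac peak in capitals.
Bsn, 146 bases before the TSS, chr9:108190385-108190530, minus strand: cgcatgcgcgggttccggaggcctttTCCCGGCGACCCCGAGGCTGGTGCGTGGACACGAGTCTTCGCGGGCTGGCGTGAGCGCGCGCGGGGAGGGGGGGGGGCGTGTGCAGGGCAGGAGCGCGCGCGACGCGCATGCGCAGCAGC
Pclo, 250 bases before the TSS, chr5:14514668-14514917, plus strand: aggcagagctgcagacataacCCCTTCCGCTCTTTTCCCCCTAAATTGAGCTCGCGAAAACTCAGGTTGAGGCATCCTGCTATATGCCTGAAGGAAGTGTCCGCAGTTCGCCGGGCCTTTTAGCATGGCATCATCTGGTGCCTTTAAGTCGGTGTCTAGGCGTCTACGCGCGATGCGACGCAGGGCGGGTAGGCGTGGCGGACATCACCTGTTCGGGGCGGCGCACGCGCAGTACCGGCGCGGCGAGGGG
The capitals cover the last 120 bases of Bsn and the last 229 of Pclo. Both are rich in CpG, with 24 CpG in the 146 bases of Bsn and 25 in the 250 bases of Pclo. The lateness of Bsn held for this start only, since another annotated start 79971 bp into the gene had H3K27ac within 5 kb at all 3 stages, H3K27me3 in Ebf2-EGFP- cells and H3K27me3 at E13.5.

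**Figure D3:**
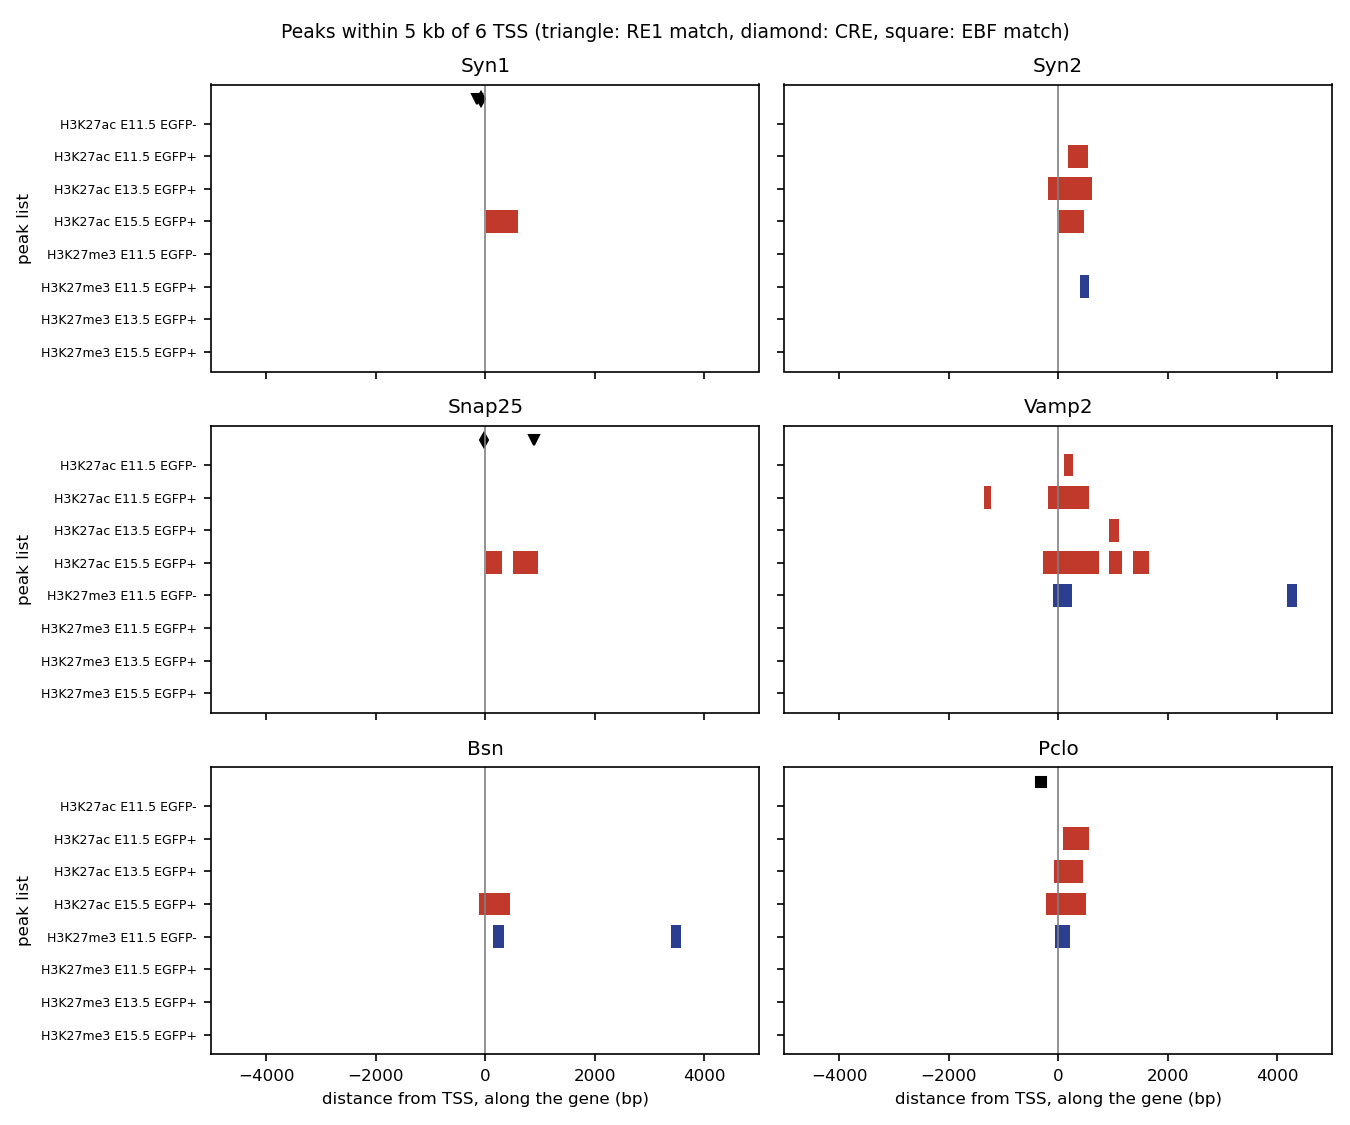
Peaks within 5 kb of the TSS of Syn1, Snap25 and Bsn (left) and of their relatives Syn2, Vamp2 and Pclo (right); the x axis is the distance from the TSS along the gene in bp, rows are the 8 lists, red bars are H3K27ac peaks, blue bars H3K27me3 peaks and black marks motif matches. The left genes have H3K27ac in the E15.5 row only, while the right genes have it in all 3 rows of Ebf2-EGFP+ cells.

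Among the 4 SNARE genes H3K27ac lay near 1 in the E11.5 list, 3 in the E13.5 list and all 4 by E15.5. The shares of all genes were 49.9%, 60.9% and 52.3%, and they also stand beside the counts by role below. Vamp2, synaptobrevin 2 and the main vesicle SNARE of the forebrain, was the early one, with widest peaks of 158 bp in Ebf2-EGFP- cells and 760, 169 and 1023 bp at the 3 stages of Ebf2-EGFP+ cells. The E13.5 peak was not over the TSS but 935 bp inside the gene, and shared no base with those of E11.5. Vamp1, the synaptobrevin of the spinal cord and brainstem, had peaks of up to 207 bp at E13.5, at 1317 bp before the TSS and 4018 bp into the gene, and at E15.5 one of 229 bp at 116 bp and one of 241 bp at 4611 bp. Stx1a, syntaxin 1A, had peaks of 312 and 368 bp at E13.5 and E15.5 that shared 272 bp. Other starts of Vamp1 and Stx1a, 15725 and 14029 bp into the genes, had H3K27ac within 5 kb at E11.5 as well, so that their lateness also depended on the start.

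Of the 4 complexins all 4 were acetylated at E11.5, 3 at E13.5 and 2 by E15.5. With 4 genes in each role, no difference in time between complexins and SNAREs could be tested. Cplx1 and Cplx2, the complexins of most brain synapses, had H3K27ac at every stage, with widest peaks of 229, 182 and 231 bp for Cplx1 and of 340, 536 and 477 bp for Cplx2. Cplx3, a complexin of retinal ribbon synapses and of subplate neurons, had 212 bp over its TSS at E11.5 and 139 bp at E13.5, and none at E15.5. Cplx4, its retinal relative, had 1 peak of 232 bp at E11.5, 3609 bp into the gene, and was among the 2 genes acetylated at E11.5 only. In a window of 1 kb the peak of Cplx4 was lost.

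Of the 14 synaptotagmins 10, 11 and 9 were acetylated at the 3 stages in turn. Where 3 widths follow a gene here and below, they are those of its widest H3K27ac peak at E11.5, E13.5 and then E15.5. Syt1, the fast calcium sensor of most forebrain synapses, had peaks of 396, 189 and 700 bp. The E11.5 and E15.5 peaks of Syt1 shared 396 bp, while the E13.5 peak lay 515 bp before the TSS and overlapped neither. Syt2, its close relative in brainstem and spinal neurons, had the widest synaptotagmin peak of E11.5, of 822 bp over its TSS, then 214 bp at E13.5 and none within 5 kb at E15.5, where the nearest peak was 52698 bp away. Syt9, also a fast sensor, had 308 bp at E11.5 and 754 bp at E15.5, both over the TSS, and none at E13.5. Around their main starts Syt1 was thus acetylated at every stage, Syt9 not at E13.5 and Syt2 not at E15.5, but another start of Syt2, 62623 bp into the gene, had H3K27ac within 5 kb at all 3 stages. Syt7, the slow sensor of asynchronous release, had 569, 444 and 469 bp.

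The synaptotagmins with little or no calcium binding, which act elsewhere in membrane traffic, were as mixed. Syt12 had 388, 334 and 245 bp, and Syt16 had 142, 242 and 238 bp. Syt11 had 3 peaks of up to 396 bp at E11.5, none at E13.5 and 1 of 1416 bp at E15.5, which lay in an intron 2542 bp from the TSS and took in both intronic peaks of E11.5. That E15.5 peak covered another annotated start of Syt11, 2565 bp into the gene. Starts of Syt11 farther in, at 12780 and 23113 bp, had H3K27ac within 5 kb at E13.5. Syt13 had H3K27ac of up to 185 bp at E13.5 only, and Syt4 had no peak of either mark within 5 kb in any of the 8 lists, its nearest H3K27ac peak being 18456 bp away at E13.5.

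Of the remaining synaptotagmins, Syt6 had 242, 492 and 309 bp, Syt10 had 414 and 143 bp at E11.5 and E13.5, and Syt17 had 171 and 285 bp at the same stages. Syt3 and Syt5 were late, with 176 and 754 bp for Syt3 and 321 and 617 bp for Syt5 at E13.5 and E15.5. At E13.5 the peaks of Syt5 lay 1982 bp before and 4462 bp inside the gene, and the E15.5 list added one 76 bp from the TSS. One E13.5 peak near Syt3 was closer to the TSS of 1700008O03Rik, 1718 bp from that of Syt3.

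The priming and tethering genes included the widest peaks. Rims2, a RIM protein of the active zone, had an H3K27ac peak of 1998 bp centred on its TSS at E11.5 and of 2022 bp at E15.5, which shared 1924 bp, and at E13.5 a pair of 535 and 251 bp. It was acetylated in Ebf2-EGFP- cells too, with peaks of 266 and 451 bp, the former within 2 H3K27me3 peaks of the same cells for 136 of its bases. That peak is printed, with the bases also covered by H3K27me3 in capitals, since it is a site of a release gene, outside any annotated exon, that was called for both marks in the same cells.
Rims2, H3K27ac peak of E11.5 Ebf2-EGFP- cells, chr15:39197543-39197808, plus strand: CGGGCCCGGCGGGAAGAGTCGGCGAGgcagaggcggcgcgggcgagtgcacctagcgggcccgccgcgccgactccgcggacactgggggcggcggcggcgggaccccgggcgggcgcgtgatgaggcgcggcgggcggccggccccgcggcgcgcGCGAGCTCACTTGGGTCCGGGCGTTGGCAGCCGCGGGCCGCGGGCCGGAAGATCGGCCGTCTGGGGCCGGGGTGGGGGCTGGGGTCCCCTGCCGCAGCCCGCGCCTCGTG
It held 49 CpG in 266 bases and 83.5% G+C. Rims1, the RIM protein with the same domains, was late, with 303 and 630 bp at E13.5 and E15.5. Rims3, a short RIM, had 168, 129 and 213 bp, but its E13.5 peak lay 4906 bp before the TSS, at the edge of the window.

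Unc13a and Unc13b, Munc13 proteins that open syntaxin for priming, were early. Unc13a had 393, 158 and 1600 bp, and the E15.5 peak spanned the sites of all 3 E11.5 peaks. Peaks centred 4770 bp (E13.5) and 4819 bp (E15.5) from its TSS, before the gene, were nearer to the TSS of Jak3, and the first of them is the 158 bp peak, next to which the widest of E13.5 was 149 bp. Unc13b had 477, 424 and 764 bp. Unc13c, a Munc13 protein of the cerebellum, had no peak of either mark within 5 kb. Rab3a, the main Rab3 of vesicles, had 232, 211 and 645 bp, Rab3b had 154, 543 and 275 bp, and Rab3c had a single peak of 180 bp at E11.5. The 3 Rab3 genes were therefore all acetylated at E11.5, while 2 of them were at E13.5 and E15.5.

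The SV2 glycoproteins, which sit in the vesicle membrane, were acetylated near 1, 3 and 2 of the 3 genes at the stages in turn. Sv2b had 224, 314 and 255 bp, with the E11.5 peak 582 bp away from that of E15.5. Sv2a, the target of the antiepileptic drug levetiracetam, had 4 peaks of up to 275 bp at E13.5 and 1 of 264 bp at E15.5, and a start 11395 bp into the gene had H3K27ac at E11.5. Sv2c had 136 bp over its TSS at E13.5 only, and a start 43711 bp into the gene was acetylated within 5 kb at E11.5 as well as at E13.5.

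Peak widths differed between stages. The median of the widest peak among acetylated release genes was 340 bp at E11.5, 275 bp at E13.5 and 524 bp at E15.5, and among all acetylated genes 342, 255 and 582 bp. Of 19 release genes acetylated at both E11.5 and E15.5, 17 had the wider peak at E15.5 (89.5%, all genes 85.5%). Of 21 acetylated at E11.5 and E13.5, 8 had the wider one at E13.5 (38.1%, all genes 36.1%), and of 23 acetylated at E13.5 and E15.5, 15 had the wider one at E15.5 (65.2%, all genes 84.4%). Peak width depends on calling and depth, which are not known, and the part of these in the widths was not tested.

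**Figure D4:**
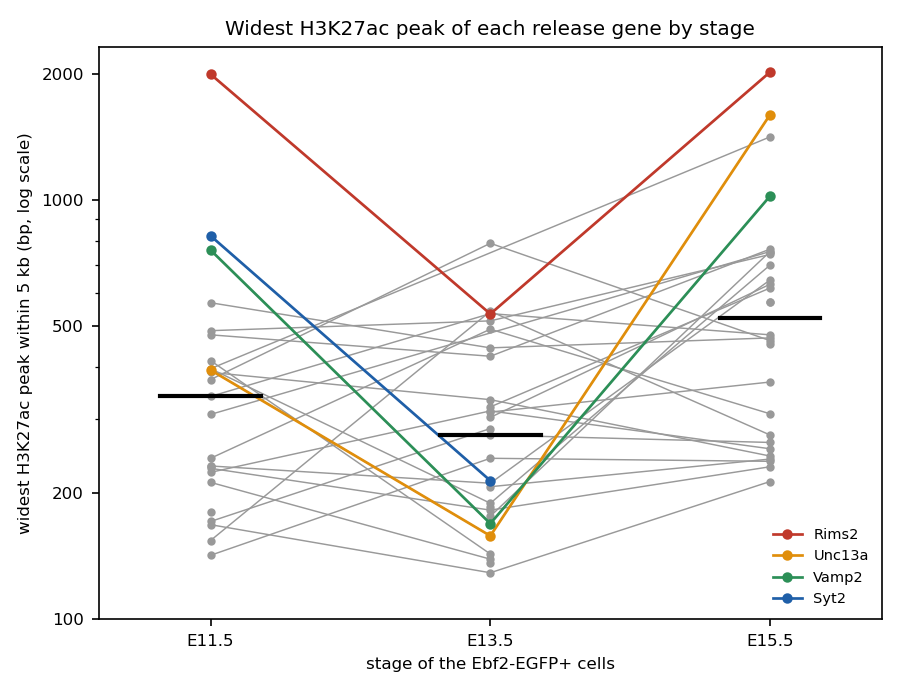
Widest H3K27ac peak within 5 kb of the TSS (y axis, bp, log scale) at each stage of Ebf2-EGFP+ cells (x axis); each point is a release gene, lines join the stages at which a gene has a peak (passing over E13.5 where it has none there), and black bars are medians of 340, 275 and 524 bp over the genes with a peak. Rims2 stands at 1998 and 2022 bp at E11.5 and E15.5, Unc13a and Vamp2 are narrowest at E13.5 and widest at E15.5, and Syt2 has no peak at E15.5.

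Acetylated sites were shared between E11.5 and E15.5 more often than either was with E13.5. Of the 19 release genes acetylated at E11.5 and E15.5, 17 had peaks of these stages that shared at least 1 bp (89.5%, all genes 88.8%), with Syt6 and Sv2b as the exceptions. Of the 21 acetylated at E11.5 and E13.5, 12 had shared sites (57.1%, all genes 71.8%), and of the 23 at E13.5 and E15.5, 16 did (69.6%, all genes 77.9%). Counted over peaks, 14 of the 34 H3K27ac peaks of E11.5 overlapped one of E13.5 (41.2%, all genes 48.8%) and 20 overlapped one of E15.5 (58.8%, all genes 62%). A peak covered the TSS itself in 11 of 25 acetylated release genes at E11.5, but in 4 of 29 at E13.5 and in 12 of 28 by E15.5, and in 30.1%, 23% and 52.6% of all acetylated genes. At E13.5, 17 of 51 peaks were centred upstream of the gene (33.3%, all genes 35.6%), close to the share over all genes. At E11.5 2 of 34 were (5.88%, all genes 28.1%) and at E15.5 4 of 36 (11.1%, all genes 26.7%), both below that share by a difference that was not tested.

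Many release genes had H3K27me3 in Ebf2-EGFP- cells and H3K27ac in Ebf2-EGFP+ cells of the same stage. This was about as frequent as among all genes. Of the 20 release genes with H3K27me3 in Ebf2-EGFP- cells, 14 (70%) were acetylated in Ebf2-EGFP+ cells of E11.5, against 72.3% of all such genes. Of the 19 without H3K27me3 there, 11 (57.9%) had H3K27ac, above the 29.1% of all such genes by a difference that was not tested. In 11 of the 14 (78.6%, all genes 75.1%) the peaks of both marks shared bases, 350 bp in Vamp2, 305 bp in Unc13b, 273 bp in Syt12 and 269 bp in Cplx2. In Syt6, Syt17 and Rims3 the peaks lay 18, 1022 and 2216 bp apart. The widest H3K27me3 peaks of the 20 genes ranged from 130 bp in Stx1a to 534 bp in Syt9, with a median of 240 bp, where all marked genes had 247 bp.

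Both marks within 5 kb in the same cells were seen near few release genes. In Ebf2-EGFP- cells these were Vamp2 and Rims2 (all genes 3.42%), at E11.5 in Ebf2-EGFP+ cells Syn2 (all genes 3.56%), at E13.5 Syt13, Syt17, Cplx3 and Sv2c (all genes 8.39%), and at E15.5 none (all genes 0.752%). Each release gene with H3K27me3 in Ebf2-EGFP+ cells thus had H3K27ac in the same cells, as had 72.2% and 90.1% of all genes with H3K27me3 at E11.5 and E13.5. At E13.5 the marks shared 55 bp in Sv2c but lay 34 bp apart in Cplx3, 140 bp apart in Syt13 and 611 bp apart in Syt17, and over all genes with both marks they shared bases in 59.3%. None of these 4 was acetylated at E15.5, where 68.6% of all genes with both marks at E13.5 were. With any annotated start 8 release genes had both marks at E13.5. Those added were Syt2, Syn2, Unc13a and Bsn, which at that setting had H3K27ac at E15.5 too.

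Syt17, an atypical synaptotagmin, was the only release gene in which an H3K27me3 peak of E13.5 Ebf2-EGFP+ cells overlapped one of E11.5 Ebf2-EGFP- cells, as it did in 46.7% of all genes with both. The E11.5 peak was centred 487 bp from the TSS, before the gene, and capitals mark the 125 bases that the E13.5 peak covered too.
Syt17, H3K27me3 peak of E11.5 Ebf2-EGFP- cells, chr7:118448597-118448821, minus strand: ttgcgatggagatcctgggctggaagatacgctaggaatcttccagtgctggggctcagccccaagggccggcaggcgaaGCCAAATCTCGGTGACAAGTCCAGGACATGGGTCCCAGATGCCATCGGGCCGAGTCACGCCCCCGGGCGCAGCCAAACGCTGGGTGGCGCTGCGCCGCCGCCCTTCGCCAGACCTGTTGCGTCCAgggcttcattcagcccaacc
In Syt13 and Sv2c the peaks of both lists lay 926 and 39 bp apart, and Cplx3 had none in Ebf2-EGFP- cells.

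Base composition was measured within 500 bp of each TSS. The median G+C of the release genes was 59.3%, from 46.7% in Syt4 to 74.1% in Rims2, and that of all genes 54.7%. The ratio of observed to expected CpG had a median of 0.67, against 0.55. The 17 genes acetylated at all 3 stages had a median ratio of 0.69 (all such genes 0.77), and the 3 never acetylated, Syt4, Syn3 and Unc13c, had 0.48, 0.35 and 0.35 (all such genes 0.17). The 20 genes with H3K27me3 in Ebf2-EGFP- cells had a median G+C of 63.0% against 55.9% for the 19 without, and over all genes these values were 59.3% and 49.3%. Of the 3 genes acetylated at E15.5 only, Syn1 and Bsn had 63.9% and 67.2% G+C, with CpG ratios of 0.75 and 0.82, while Snap25 had 48.4% and 0.55. A match to the EBF motif, searched as TCCC and GGGA with 2 bases between, was found near Cplx2 and Pclo and near 6.25% of all genes.

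**Figure D5:**
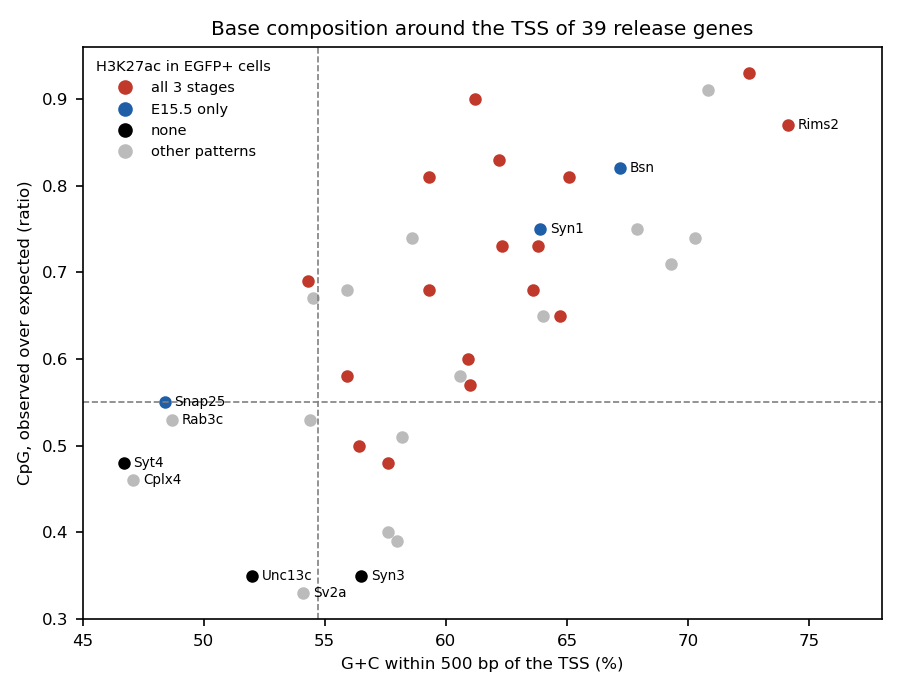
G+C content (x axis, percent) and ratio of observed to expected CpG (y axis) within 500 bp of the TSS of the 39 release genes; each point is a gene, coloured by the stages with H3K27ac in Ebf2-EGFP+ cells, and dashed lines are the medians of all genes, 54.7% and 0.55. The 3 genes with no H3K27ac (black) lie at a ratio of 0.48 or less, as do 5 acetylated genes, and of the blue points Snap25 (48.4% G+C) lies apart from Syn1 and Bsn (63.9% and 67.2%).

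The release genes are long, with a median of 64.1 kb against 17.4 kb for all genes, and peaks farther away were counted too. A distal H3K27ac peak, over 5 kb and up to 100 kb from the TSS, was found for 32 release genes in the E11.5 list (all genes 85.7%), 37 in that of E13.5 (all genes 96.8%), 30 in that of E15.5 (all genes 80.1%) and 9 in Ebf2-EGFP- cells (23.1%, all genes 14.2%). For H3K27me3 there were 37 in Ebf2-EGFP- cells (94.9%, all genes 90.7%). At the 3 stages of Ebf2-EGFP+ cells there were 19, 17 and 5 (48.7%, 43.6% and 12.8%, all genes 47.8%, 48.1% and 13%). Apart from H3K27ac in Ebf2-EGFP- cells, the shares were near those of all genes.

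In a separate set of 35 other genes of the same machinery H3K27ac lay near 22 at E11.5 (62.9%, all genes 49.9%), a share close to that of the release genes. At the later stages it lay near 31 (88.6%, all genes 60.9%) and 32 (91.4%, all genes 52.3%), above the 74.4% and 71.8% of the release genes. It lay near 0 of them in Ebf2-EGFP- cells (all genes 4.17%), where H3K27me3 lay near 24 (68.6%, all genes 48.2%). Acetylation was present at all 3 stages near 18 of them (51.4%, all genes 33.1%), and first at E13.5 and again at E15.5 near 11 (31.4%, all genes 8.15%). Ppfia2, a liprin of the active zone, had it at E15.5 only (2.86%, all genes 4.09%), with a peak of 429 bp. H3K27me3 at E13.5 lay near 8 of them (22.9%, release genes 10.3%, all genes 9.31%), the SNARE adaptor Napa, the calcium sensors Doc2a and Doc2b, the RIM binding protein Rimbp2, the Rab3 effector Rph3a, Rab3gap1, Rims4 and the inhibitory vesicle transporter Slc32a1, with peaks of 116 bp in Rimbp2 and Rph3a to 257 bp in Slc32a1. All 8 had H3K27ac in the same cells, as the 4 release genes had.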

How the data were processed

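Peak lists of 15 ChIP-seq samples of 8 groups were used, and the 8 input samples have no list of their own. The authors aligned reads to mm10 with Bowtie 1.1.2 on Galaxy with up to 3 mismatches, and called peaks with MACS at a p of 1e-05. Whether replicates were pooled and which control was used is not given in the sources used here. The deposited lists give position and a score that is 0 for every peak, so height, enrichment and depth are unknown. Widths depend on that depth and on the caller.

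Genes were the 21938 protein-coding genes of GENCODE M21 on chromosomes 1 to 19, X and Y. Starts were read as 0-based and are given 1-based. A TSS was marked where a peak lay within 5 kb. Peaks overlapped where they shared at least 1 bp. Sequences were read from GRCm38 with pysam 0.24.0, and statistics were computed with Python 3.11.15 and NumPy 2.4.6. Distances and the RE1 search were tested on simulated data. With 1 list per group no test was made. All 39 release genes are named, and of the 35 others those with H3K27ac at E15.5 only or H3K27me3 in Ebf2-EGFP+ cells. The release genes, the other gene lists and the rules were chosen with earlier results of these data known. Alternatives were a 1 kb window, any annotated start, a least width of 300 bp, lists of equal length that keep the widest peaks, a distal limit of 50 kb, a reciprocal overlap of 50% and RE1 with up to 2 mismatches.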

Additional observations from a re-analysis of the deposited data

How the results depend on the processing

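Counts of release genes are given in the order of the lists used above. Shares of all genes at these settings are given for the reciprocal overlap and RE1 only. For the other settings it is not known whether the differences from all genes held. With peaks of at least 300 bp, H3K27ac lay near 1 in Ebf2-EGFP- cells and 14 and 13 at E11.5 and E13.5, and H3K27me3 near 5 in Ebf2-EGFP- cells and 0 at E11.5 and E13.5. At that width 6 had H3K27ac at all 3 stages and 5 at E15.5 only (Syt3, Syn1, Snap25, Rab3a and Bsn), both marks were near 0 in Ebf2-EGFP- cells and near 0 at E11.5 and E13.5, and 5 with H3K27me3 in Ebf2-EGFP- cells were acetylated in Ebf2-EGFP+ cells of E11.5. Distal peaks of that width were found for 4 in the H3K27ac list of Ebf2-EGFP- cells, and in the H3K27me3 lists for 21 in Ebf2-EGFP- cells and 0 at every stage of Ebf2-EGFP+ cells. With the widest peaks only (1386 for H3K27ac, 1438 for H3K27me3), H3K27ac lay near 3, 1 and 3 at the 3 stages, near 0 at all 3 together, and 2 (Syt11 and Unc13a) were acetylated at E15.5 only. There H3K27me3 lay near 0 in Ebf2-EGFP- cells and 0 at E11.5 and E13.5, both marks near 0 in every group, and 0 passed from H3K27me3 in Ebf2-EGFP- cells to H3K27ac. With any annotated start, 24 had H3K27ac at all 3 stages, and those acetylated at E15.5 only were Syn1 and Snap25. H3K27me3 then lay near 3, 8 and 1 at the 3 stages of Ebf2-EGFP+ cells, and both marks near 3, 8 and 1. With these starts 22 had H3K27me3 in Ebf2-EGFP- cells and H3K27ac in Ebf2-EGFP+ cells of E11.5, in place of 14. Among them Syt1, Rab3b and Sv2c had no single start with both. Within 1 kb, 12 had H3K27ac at all 3 stages and 5 were acetylated at E15.5 only (Syt5, Syn1, Snap25, Vamp1 and Bsn). Up to 50 kb, distal peaks were found for 3 in the H3K27ac list of Ebf2-EGFP- cells and 11 in the H3K27me3 list of E13.5. With a reciprocal overlap of 50%, 3 of the 34 H3K27ac peaks of E11.5 were shared with E13.5 (8.82%, all genes 21.1%). With E15.5, 12 were shared (35.3%, all genes 31.8%). The cause of these differences was not tested, beyond that shorter lists hold fewer peaks. RE1 with up to 2 mismatches was found near the same 3 release genes and 0.319% of all genes.

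No paired analysis was possible because each group has 1 list and no list per library. For the same reason no replicate was left out. Depth is unknown, so a missing peak is no measure of how little of a mark was there. This holds also for Syn1, Snap25 and Bsn before E15.5 and for Syt4 at every stage.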
